A study of Mus musculus with 12 samples.

Results

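Accessible regions of the 5 genes of the Ikaros family, Ikzf1 to Ikzf5, were examined in thymic iNKT1, iNKT2 and iNKT17 cells with and without the Hivep3 gene. A region belonged to a gene when it overlapped the gene body or the 10 kb on either side of it, which gave 81 of the 63309 regions of 500 bp in the deposited table: 26 at Ikzf1, 21 at Ikzf2, 28 at Ikzf3, 5 at Ikzf4 and 1 at Ikzf5. The assay was ATAC-seq, in which a transposase inserts sequencing adapters into open chromatin. The 12 libraries made 6 groups of 2: untreated iNKT1 (CD122+ ICOS-), iNKT2 (CD122- ICOS+ Izumo1r+ CD138-) and iNKT17 (CD122- ICOS+ Izumo1r- CD138+) thymocytes from wild-type C57BL/6 mice, and the same subsets from Hivep3-/- mice on the C57BL/6 background, all from mice 8 to 9 weeks old. Cells came from pooled thymi, the subsets were transposed together, and they were sorted again on ICOS and CD138 alone. The sample titles number the libraries by mouse, which leaves unclear whether a library came from a single mouse or from a pool. Each library was taken as a pool. The p-values rest on a spread between libraries that is shared by all 6 groups of 2.

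Ikaros family proteins are zinc finger transcription factors of lymphocytes. They bind DNA through N-terminal zinc fingers, pair with each other through C-terminal zinc fingers, and can recruit the NuRD and Sin3 corepressor complexes. Ikzf1 encodes Ikaros, needed for lymphocyte development; Ikzf2 encodes Helios, known from regulatory T cells and from thymocytes that received strong T cell receptor signals; Ikzf3 encodes Aiolos; Ikzf4 encodes Eos; and Ikzf5 encodes Pegasus, the most divergent member. Hivep3 encodes another large zinc finger protein, and iNKT cells are T cells with an invariant receptor for lipids on CD1d whose subsets make mainly IFNγ (iNKT1), IL-4 (iNKT2) or IL-17 (iNKT17).

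The central 200 bases of 5 regions are given because the largest differences at these loci lay there: the Ikzf1 region with the largest excess in iNKT1 over iNKT17 cells, the Ikzf3 region with the largest deficit in iNKT2 against iNKT17 cells, and the Ikzf2 regions with the largest rises and the largest fall in Hivep3-/- cells. All are intronic, and each is named by the distance of its centre from the annotated gene start. Capitals mark the letters GGGAA (Ikaros core), GGAAG (Ets core), TGTGGT (Runt), GGTGTGA (T-box), AGGTCA (ROR), TCAAAG (TCF), TGGAAA (NFAT) and TGAGTCA or TGACTCA (AP-1), searched on both strands; GGGAA and GGAAG overlap by 4 letters where they share a site. Bases are from the RefSeq sequence of GRCm38.p6 (mm10).
Ikzf1 +66.3 kb, chr11:11751236-11751435, plus strand: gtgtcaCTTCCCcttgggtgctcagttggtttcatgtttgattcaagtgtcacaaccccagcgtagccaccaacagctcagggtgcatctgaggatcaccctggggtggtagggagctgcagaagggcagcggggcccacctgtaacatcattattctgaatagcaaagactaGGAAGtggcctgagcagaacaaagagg
Ikzf3 +70.9 kb, chr11:98475073-98475272, plus strand: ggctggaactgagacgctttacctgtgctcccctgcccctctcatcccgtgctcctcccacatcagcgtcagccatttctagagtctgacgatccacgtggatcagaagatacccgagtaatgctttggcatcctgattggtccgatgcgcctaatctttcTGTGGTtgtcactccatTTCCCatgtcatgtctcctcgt
Ikzf2 +24.3 kb, chr1:69662851-69663050, plus strand: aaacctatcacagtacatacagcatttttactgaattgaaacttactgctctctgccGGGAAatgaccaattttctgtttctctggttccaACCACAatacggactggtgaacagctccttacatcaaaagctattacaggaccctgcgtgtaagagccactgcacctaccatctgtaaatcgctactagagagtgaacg
Ikzf2 +16.9 kb, chr1:69670197-69670396, plus strand: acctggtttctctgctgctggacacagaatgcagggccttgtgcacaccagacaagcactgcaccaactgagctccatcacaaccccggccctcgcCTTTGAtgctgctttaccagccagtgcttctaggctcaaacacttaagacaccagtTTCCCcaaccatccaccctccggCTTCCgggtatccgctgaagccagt
Ikzf2 +142.8 kb, chr1:69544310-69544509, plus strand: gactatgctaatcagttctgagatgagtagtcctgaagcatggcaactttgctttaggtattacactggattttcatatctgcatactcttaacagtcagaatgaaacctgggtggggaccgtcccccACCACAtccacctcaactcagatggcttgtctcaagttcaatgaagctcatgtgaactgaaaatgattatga
The Ikaros core stood in 4 of these 5 stretches, and the 142.8 kb stretch held 1 Runt match and no other. Over the whole 500 bp, the Ikaros core was found in 70 of the 81 regions (86.4%) against 77.0% of all regions in the table, and the Runt letters in 38 (46.9%) against 40.2%. T-box letters were in 3 regions (3.70% against 8.57%), all 3 at Ikzf3, and ROR letters in 18 (22.2% against 27.7%). Median GC content was 45.6% at these loci and 50.0% over the table. These are counts of letters and do not show binding.

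Ikzf1, Ikzf2 and Ikzf3 were open at many places in every subset, each with its own order of subsets. Ikzf1 lies at chr11:11685003-11772926 on the plus strand with 24.1 regions per 100 kb of locus, Ikzf2 at chr1:69531214-69687245 on the minus strand with 11.9, Ikzf3 at chr11:98464902-98546031 on the minus strand with 27.7, and Ikzf4 at chr10:128630843-128645991 on the minus strand with 14.2. For Ikzf5, at chr7:131388652-131410521 on the minus strand, 1 region was in the table, at the start it shares with Acadsb. The Ikzf3 locus also overlaps Grb7 and Zpbp2, and the Ikzf4 locus overlaps Rps26, whose promoter is 1 of its 5 regions, so regions at those edges may belong to the neighbours. Values below are log2 of normalized insertions per kb. A region was tested where its linear mean reached 5 in either compared group, and was called when limma's adjusted p over all tested regions was below 0.1 and the difference at least 3-fold.

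The strongest region within 1000 bp of an annotated start of each gene is given first. At Ikzf1 the strongest promoter region (+1.1 kb) read between 3.90 and 5.23 over the 12 libraries, with the subsets overlapping. The strongest Ikzf2 region near an annotated start (+4.0 kb, in a coding exon of the longest transcript) read 5.32 and 5.24 in C57BL/6 iNKT1, 5.25 and 5.22 in iNKT2, and 5.04 and 4.75 in iNKT17 cells. In Hivep3-/- cells it read 5.84 and 5.74, 5.48 and 5.65, and 5.29 and 5.16, above the C57BL/6 libraries of the same subset in each case, by 0.51 (adjusted p = 0.0268), 0.33 (adjusted p = 0.109) and 0.33 (adjusted p = 0.208). At Ikzf3 (+0.2 kb) values ran from 5.07 to 6.42 and were highest in iNKT17 cells of both genotypes. The Ikzf4 promoter (+0.1 kb) stayed between 4.30 and 4.91, and the Ikzf5 promoter between 6.79 and 7.11. None of these 5 regions was called in any of the 12 comparisons. Other regions at annotated starts were called, all at Ikzf3: the one at -0.7 kb, named after its values were seen, read 3.64 and 3.51 in C57BL/6 iNKT2 against 5.21 and 5.18 in iNKT17 cells, a difference of -1.63 (SE 0.16), and those at the internal starts at 57.1 and 68.6 kb are described with the Ikzf3 subsets.

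Summed over the locus, Ikzf1 was most open in iNKT1 and least open in iNKT17 cells, and Ikzf3 was most open in iNKT17 and least open in iNKT2 cells. The linear Ikzf1 sum was 763 and 725 in C57BL/6 iNKT1, 621 and 580 in iNKT2, and 468 and 416 in iNKT17 libraries. The subsets did not overlap, and iNKT1 exceeded iNKT17 cells by 0.75 on the log2 scale (SE 0.06, adjusted p = 7.7e-07). In Hivep3-/- cells the sums were 761 and 711, 623 and 586, and 455 and 427, with the same order and an iNKT1 minus iNKT17 difference of 0.74 (SE 0.06, adjusted p = 9.74e-07). The Ikzf3 sum was 960 and 871 in C57BL/6 iNKT1, 705 and 665 in iNKT2, and 1350 in both iNKT17 libraries, and iNKT2 lay below iNKT17 cells by a log2 difference of -0.98 (SE 0.05, adjusted p = 1.13e-08). Hivep3-/- libraries gave 824 and 794, 667 and 641, and 1410 and 1430, with iNKT2 minus iNKT17 at -1.12 (SE 0.05, adjusted p = 3.68e-09) and iNKT1 minus iNKT17 at -0.81 (SE 0.05, adjusted p = 3.24e-08).

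Ikzf4 had its highest sum in iNKT2 cells, with 240 and 242 in C57BL/6 and 271 and 269 in Hivep3-/- libraries, against 162 and 175, and 169 and 164, in iNKT1 cells. The iNKT17 libraries lay between these, at 173 and 201 in C57BL/6 and 204 and 222 in Hivep3-/- cells, and in C57BL/6 iNKT1 and iNKT17 overlapped. Of these differences, iNKT1 minus iNKT2 in Hivep3-/- cells passed the 1.5-fold threshold set for sums (-0.70, SE 0.07, adjusted p = 8.27e-06), while the C57BL/6 value was -0.51 (adjusted p = 0.000123). Of the 10008 protein-coding genes with at least 3 regions, the sums called between iNKT1 and iNKT2, iNKT1 and iNKT17, and iNKT2 and iNKT17 were 13.3%, 17.4% and 12.9% in C57BL/6, and 14.6%, 16.6% and 12.8% in Hivep3-/- cells. Of the 4 family members with a sum, 0, 1 and 1 were called in C57BL/6, and 1, 2 and 1 in Hivep3-/- cells.

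**Figure D1:**
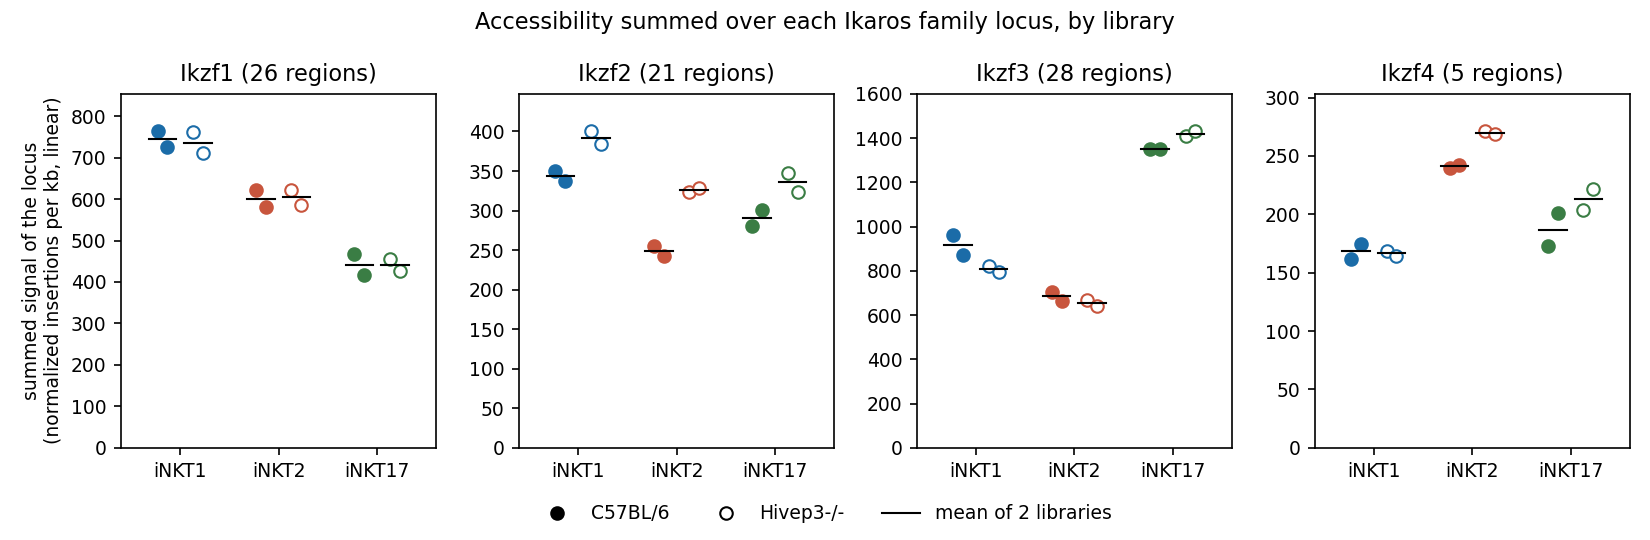
Linear signal summed over all regions of the Ikzf1, Ikzf2, Ikzf3 and Ikzf4 loci (y axis, normalized insertions per kb, from 0) in each of the 12 libraries, by subset and genotype (filled points, C57BL/6; open points, Hivep3-/-; lines, means of 2 libraries). Ikzf1 falls from about 744 in iNKT1 to 442 in iNKT17 cells of C57BL/6 mice, Ikzf3 is highest in iNKT17 cells at 1350, and Ikzf2 is the locus whose Hivep3-/- points lie above the C57BL/6 points in all 3 subsets.

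Between the subsets of C57BL/6 mice, 31 of the 78 tested family regions were called in at least 1 of 3 comparisons (39.7%), against 29.7% of all tested regions. Ikzf3 contributed 16 of its 28, Ikzf2 9 of the 18 tested, Ikzf1 6 of 26, and Ikzf4 and Ikzf5 none. In Hivep3-/- cells 25 of 80 were called (31.2%, against 29.6% of all regions): 15 at Ikzf3, 7 at Ikzf1 and 3 at Ikzf2. The lists shared 22 regions, which is 71.0% of the C57BL/6 list and 88.0% of the Hivep3-/- list, where the lists over all regions shared 80.6% and 80.9%. Of 56 C57BL/6 calls over the 3 comparisons, 56 had the same sign in Hivep3-/- cells, against 98.8% of the calls over all regions.

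At Ikzf1, called differences were all in the same direction, with more signal in iNKT1 cells or less in iNKT17 cells. Against iNKT2 cells, iNKT1 cells of C57BL/6 mice were higher at 5 of 26 regions and lower at 0, where 7.33% and 8.71% of all regions were called higher and lower (16.0% in all). Against iNKT17 cells they were higher at 5 and lower at 0 (9.72% and 10.8% of all regions, 20.5% together). Of the intronic regions, 4 were higher in iNKT1 than in both other subsets, at 31.2, 51.5, 66.3 and 78.6 kb, or 15.4% of the locus against 4.59% of all regions. In Hivep3-/- cells 5 regions had that pattern (19.2% against 5.36%), these 4 and the one at 36.4 kb. There, 6 Ikzf1 regions were higher and 0 lower in iNKT1 than in iNKT2 cells (17.3% of all regions called, 8.77% higher and 8.54% lower), and 5 were higher and 0 lower than in iNKT17 cells (19.3% of all regions, 9.48% higher and 9.83% lower). The 31.2, 36.4 and 51.5 kb regions were picked out after their values were seen. At 36.4 and 51.5 kb in both genotypes, and at 78.6 kb in Hivep3-/- mice, iNKT1 was the only subset to reach the accessibility minimum. Those regions were tested through the subset where they were high, so the number higher in iNKT1 cells is not read as support.

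The largest of these lay 66.3 kb into Ikzf1, in an intron (chr11:11751086-11751585), and its central bases are the first of those given above. It read 5.15 and 5.18 in iNKT1, 3.39 and 3.19 in iNKT2, and 1.66 and 1.69 in iNKT17 cells of C57BL/6 mice. The Hivep3-/- libraries read 5.37 and 5.42, 3.35 and 3.84, and 2.35 and 2.00. Each step was larger than the gap between replicates, and the subsets did not overlap in either genotype. iNKT1 minus iNKT17 was 3.49 in C57BL/6 (SE 0.20, adjusted p = 1.65e-08) and 3.22 in Hivep3-/- cells (SE 0.20, adjusted p = 3.68e-08). iNKT2 minus iNKT17 was 1.62 in C57BL/6 cells (SE 0.20, adjusted p = 2.21e-05), and without C57BL/6 iNKT2 replicate 1 it was 1.52, under 3-fold.

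Further along, an intronic region at 78.6 kb (chr11:11763369-11763868) read 5.03 and 4.66 in C57BL/6 iNKT1 cells, 2.45 and 2.35 in iNKT2 cells, and 1.87 and 1.04 in iNKT17 cells. In Hivep3-/- cells it read 4.60 and 4.43, 1.79 and 2.45, and 2.35 and 1.47, so iNKT1 stood apart while iNKT2 and iNKT17 overlapped. The iNKT1 minus iNKT2 difference was 2.44 in C57BL/6 (SE 0.34, adjusted p = 5.98e-05) and 2.40 in Hivep3-/- cells (SE 0.34, adjusted p = 5.63e-05). Not every Ikzf1 region followed this order. The region at 41.1 kb, singled out after its values were seen, read 5.30 and 5.12 in C57BL/6 iNKT1 cells against 6.57 and 6.59 in iNKT2 and 6.39 and 6.08 in iNKT17 cells, a difference of -1.37 from iNKT2 that fell short of 3-fold. Beyond the gene's end, the region at 90.0 kb was called between iNKT2 and iNKT17 cells of Hivep3-/- mice (1.83, SE 0.25, adjusted p = 5.01e-05).

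Ikzf3 had low signal in iNKT2 and high signal in iNKT17 cells over much of the gene. Against iNKT17 cells, iNKT2 cells of C57BL/6 mice were lower at 12 regions and higher at 0 (8.49% and 7.72% of all regions, 16.2% together). Against iNKT2 cells, iNKT1 cells were higher at 11 and lower at 1 (7.33% and 8.71% of all regions), and against iNKT17 cells they were higher at 1 and lower at 6 (9.72% and 10.8% of all regions). A total of 9 regions were lower in iNKT2 than in both other subsets, which is 32.1% of the locus against 0.885% of all regions, and 4 were higher in iNKT17 than in both others (14.3% against 6.05%). At 83.5, 70.9, 12.9, 6.2 and 3.3 kb the iNKT2 linear mean was below the minimum of 5. Those regions were tested through the subsets where they were high, so the number lower in iNKT2 cells is not read as support. In Hivep3-/- mice 7 regions were lower in iNKT2 than in both others (25.0% against 1.20% of all regions). Another list of 7, which shared some of these, was higher in iNKT17 than in both others (25.0% against 5.50%). At 73.7, 70.9, 65.9, 6.2 and 4.8 kb the Hivep3-/- iNKT2 linear mean was again below 5. Hivep3-/- iNKT1 cells were higher than iNKT2 cells at 7 Ikzf3 regions and lower at 1 (8.77% and 8.54% of all regions), and higher than iNKT17 cells at 1 and lower at 9 (9.48% and 9.83%). Against iNKT17 cells, Hivep3-/- iNKT2 cells were lower at 13 of 28 regions and higher at 0 (8.25% and 7.33% of all regions, 15.6% together).

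The widest gap was at 70.9 kb, in an intron (chr11:98474923-98475422). C57BL/6 cells read 3.65 and 3.69 in iNKT1, -0.04 and -0.78 in iNKT2, and 5.75 and 5.64 in iNKT17, and Hivep3-/- cells 3.14 and 2.77, 0.20 and -1.72, and 5.69 and 5.79. All 4 iNKT2 libraries were below the accessibility minimum while the 4 iNKT17 libraries read at least 5.64, and the subsets did not overlap. iNKT2 minus iNKT17 was -6.11 in C57BL/6 (SE 0.45, adjusted p = 2.68e-07) and -6.50 in Hivep3-/- cells (SE 0.45, adjusted p = 1.87e-07), and iNKT1 minus iNKT2 was 4.08 in C57BL/6 cells (SE 0.45, adjusted p = 8.82e-06). Low values in iNKT2 cells make the size of these folds depend on the constant added before the logarithm. Nearby, the adjoining regions at 65.9 and 66.4 kb and an exonic region at an internal start at 68.6 kb, chosen after their values were seen, were also highest in iNKT17 cells, the first of them reading 7.02 and 6.94 against 4.76 and 4.28 in iNKT1 and 3.08 and 2.47 in iNKT2 cells of C57BL/6 mice.

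Neighbouring Ikzf3 regions could have opposite orders. At 73.7 kb (chr11:98472111-98472610) iNKT1 cells were highest, with 5.26 and 5.02 in C57BL/6 against 2.10 and 2.07 in iNKT2 and 3.29 and 2.67 in iNKT17 cells. Hivep3-/- cells read 5.12 and 4.84, 0.66 and 0.55, and 2.73 and 2.79. iNKT1 minus iNKT17 was 2.16 in C57BL/6 (SE 0.23, adjusted p = 3.91e-06) and 2.22 in Hivep3-/- cells (SE 0.23, adjusted p = 3.39e-06). At 57.1 kb (chr11:98488666-98489165), a coding exon beside another internal start, iNKT1 cells were lowest. This region read 1.77 and 2.03 in C57BL/6 iNKT1, 3.96 and 3.92 in iNKT2 and 4.68 and 4.92 in iNKT17 cells, and 1.04 and 0.18, 3.12 and 3.63, and 4.83 and 5.12 in Hivep3-/- cells. The iNKT1 minus iNKT17 difference was -2.90 in C57BL/6 (SE 0.28, adjusted p = 1.37e-06) and -4.36 in Hivep3-/- cells (SE 0.28, adjusted p = 4.01e-08). The genotypes differed in this quantity by -1.46 (SE 0.39, adjusted p = 0.0829), and at 73.7 kb in iNKT1 minus iNKT2 by 1.32 (SE 0.33, adjusted p = 0.0308), both under the 3-fold needed for a call.

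**Figure D2:**
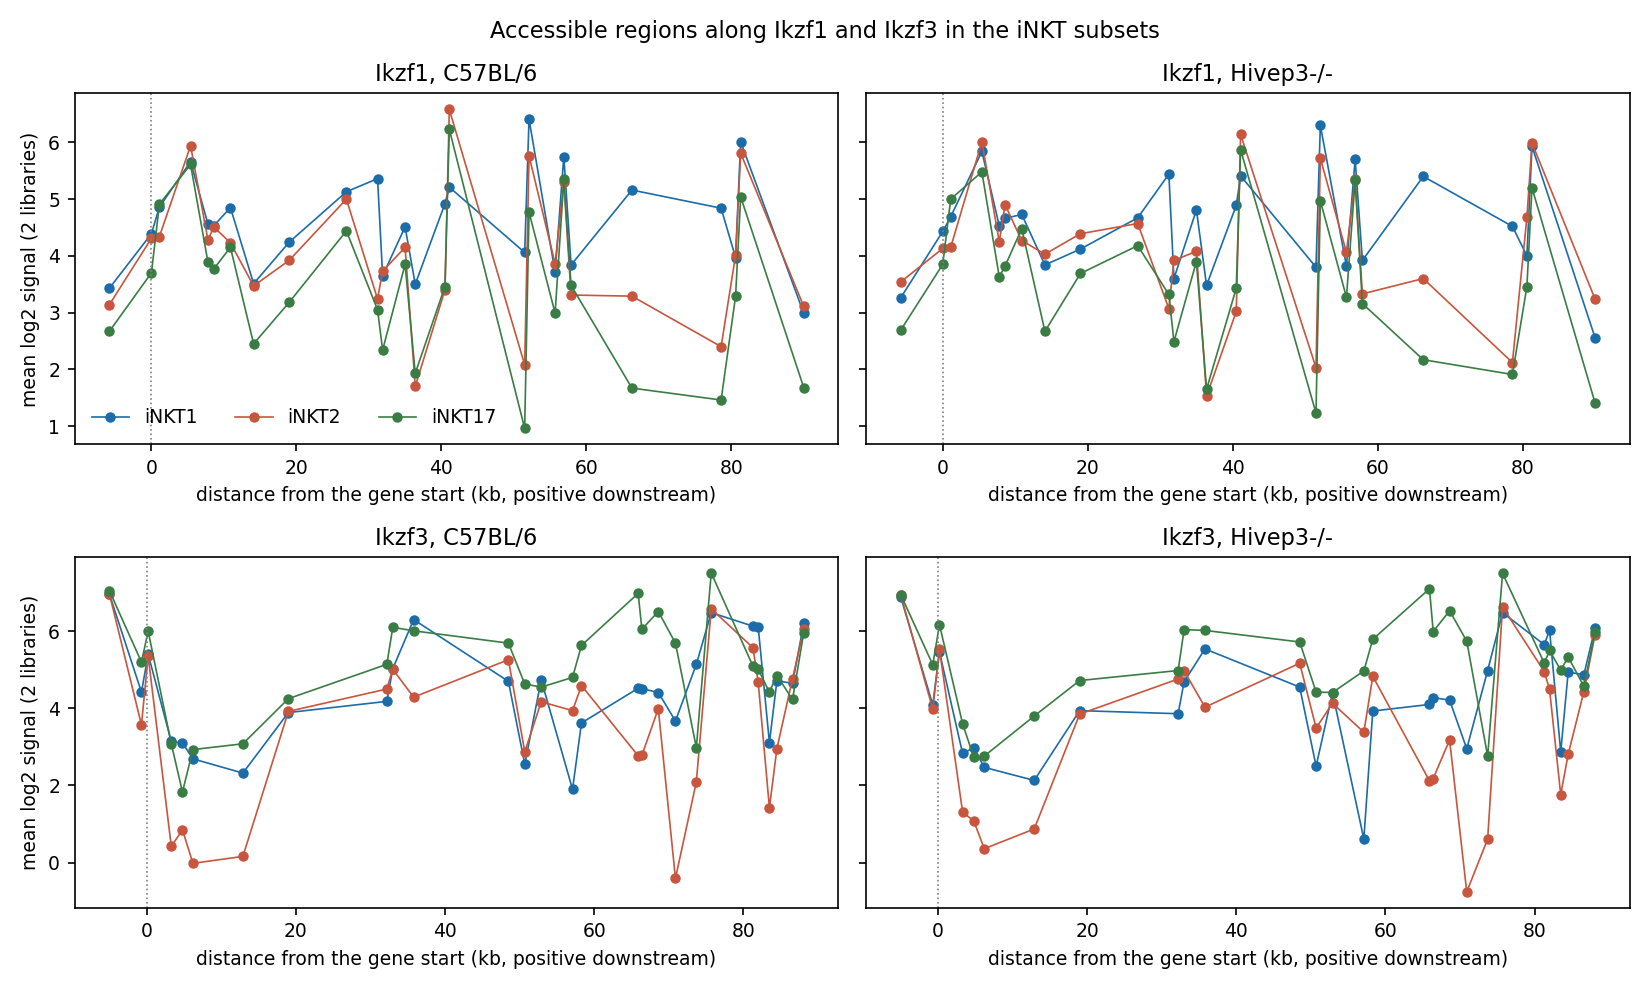
Mean log2 signal of 2 libraries (y axis) at each region of Ikzf1 (top) and Ikzf3 (bottom) against distance from the gene start in kb (x axis; dotted line, the start), in C57BL/6 (left) and Hivep3-/- (right) cells; thin lines only join regions of one subset. At Ikzf1 the iNKT1 points stand above the others at 66.3 and 78.6 kb, and at Ikzf3 the iNKT2 points drop to the lowest values at 70.9 kb while iNKT17 points stay high, in both genotypes.

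Between genotypes, Ikzf2 was the family locus with called regions. Of its 21 regions, 6 were called in at least 1 subset (28.6%), against 6 of 81 for the family (7.41%) and 2.46% of all regions. In iNKT1 cells 2 of 78 tested family regions were called, both higher in Hivep3-/- cells (1.15% of all regions called, 0.890% higher and 0.264% lower). In iNKT2 cells 5 of 69 were called, 3 higher and 2 lower (1.68% of all regions, 0.474% higher and 1.20% lower). In iNKT17 cells 0 of 71 were called (0.271% of all regions, 0.133% higher and 0.138% lower), while 3 family regions had an adjusted p below 0.1 at a smaller fold, all higher. No region of Ikzf1, Ikzf3, Ikzf4 or Ikzf5 was called, and the family's tested regions had median differences of -0.05 (iNKT1), 0.06 (iNKT2) and 0.10 (iNKT17), where the medians of the whole table were -0.02, 0.00 and -0.01.

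In iNKT2 cells the called Ikzf2 regions were higher in Hivep3-/- mice in the early introns and lower toward the 3′ end. All 6 Ikzf2 regions called between genotypes passed the accessibility minimum through the genotype in which they were high, so their number is not read as support. With a minimum on the mean over all 12 libraries, the regions at 16.0 and 24.3 kb were not tested. The calls at 16.9 kb (adjusted p = 0.00233 in iNKT1 and 0.000122 in iNKT2), 32.1 kb (0.00159), 142.8 kb (0.00516) and 149.4 kb (0.000448) were made again. That mean still includes the libraries where a region was high. At 16.9 kb the linear subset means ran from 3.34 to 4.85 in C57BL/6 and from 9.07 to 19.9 in Hivep3-/- mice. At 32.1 kb they ran from 1.81 to 5.6 and from 6.33 to 8.09. The repeated calls are therefore not read as support either. At an adjusted p below 0.1 and any fold, 6 Ikzf2 regions were higher and 2 lower in Hivep3-/- iNKT1 cells, where 5.49% and 3.93% of all regions were. In iNKT2 cells the counts were 9 and 2 (8.26% and 8.16%), and in iNKT17 cells 1 and 0 (2.66% and 1.99%). The 21 regions were divided into 3 stretches after the values were seen, without a test and not by spacing alone. The step from 6.6 to 16.0 kb, between stretches, is shorter than that from 131.3 to 142.8 kb, within the last. Over the 6 regions around the start (-4.9 to 6.6 kb) the median difference was 0.26, 0.25 and 0.19 in iNKT1, iNKT2 and iNKT17 cells. Over the 10 regions between 16.0 and 49.3 kb it was 0.71, 1.5 and 0.56, with 10, 10 and 9 regions above 0. Over the 5 regions between 131.3 and 154.1 kb it was -0.97, -1.11 and 0.01, with 4, 4 and 2 regions below 0. These medians and counts include untested regions below the accessibility minimum. Of the 21 regions, 19, 18 and 17 were tested. The iNKT1 count above 0 includes the region at 29.6 kb, with a difference of 0.00. Of all tested regions, 25244 of 54145, 27429 of 55049 and 26146 of 54311 were above 0, and 28900, 27617 and 28163 below.

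The rise called in more than 1 subset was at 16.9 kb, in an intron (chr1:69670047-69670546). C57BL/6 cells read 2.35 and 2.19 in iNKT1, 2.15 and 1.39 in iNKT2, and 1.79 and 1.69 in iNKT17. Hivep3-/- cells read 3.84 and 3.90, 4.40 and 4.22, and 3.10 and 3.25, so every Hivep3-/- library was above every C57BL/6 library. The difference was 2.54 in iNKT2 (SE 0.25, adjusted p = 0.000123) and 1.59 in iNKT1 cells (SE 0.25, adjusted p = 0.0024). In iNKT17 cells it was 1.44 (SE 0.25, adjusted p = 0.0132), under 3-fold. The region at 20.2 kb, named after its values were seen, was higher under 3-fold in both iNKT1 (1.33, adjusted p = 0.0123) and iNKT2 cells (1.5, adjusted p = 0.00454). The iNKT1 value at 16.9 kb sits at the 3-fold threshold. It was 1.52 without C57BL/6 iNKT1 replicate 2, 1.57 without Hivep3-/- iNKT1 replicate 2, and 1.56 with quantile normalization repeated.

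The adjoining region at 16.0 kb (chr1:69670960-69671459) was called in iNKT2 cells. There it read 1.44 and 0.06 in C57BL/6 and 2.96 and 2.95 in Hivep3-/- cells, a difference of 2.20 (SE 0.40, adjusted p = 0.00417), which was 1.51 without C57BL/6 iNKT2 replicate 2. In iNKT1 cells it read 2.52 and 2.43 against 3.07 and 2.99, a difference of 0.55 (adjusted p = 0.575). The iNKT17 libraries read 1.10 and 0.44 against 2.30 and 1.85 and were below the accessibility minimum. All Hivep3-/- libraries exceeded the C57BL/6 libraries of their subset here.

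At 24.3 kb (chr1:69662701-69663200), near the start of the sense intronic transcript Gm28112, signal was below the accessibility minimum in all C57BL/6 libraries. It read 0.15 and 0.06 in iNKT1, -0.10 and -0.41 in iNKT2, and 0.06 and 1.48 in iNKT17 cells. Hivep3-/- cells read 3.10 and 3.32, 2.25 and 0.84, and 2.08 and 2.21, each above the C57BL/6 libraries of its subset. The difference was 3.10 in iNKT1 cells (SE 0.52, adjusted p = 0.00317), where the region passed the accessibility minimum through the Hivep3-/- group. In iNKT2 and iNKT17 cells the region was below the minimum in both genotypes and was not tested, with differences of 1.80 and 1.37. Within Hivep3-/- mice, iNKT1 exceeded iNKT2 cells by 1.67 (SE 0.52, adjusted p = 0.0151), a call lost without Hivep3-/- iNKT1 replicate 2 (1.56) or Hivep3-/- iNKT2 replicate 2 (0.96).

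The fourth rise lay at 32.1 kb (chr1:69654927-69655426), where iNKT2 cells read 1.06 and 0.61 in C57BL/6 and 2.47 and 2.83 in Hivep3-/- mice, a difference of 1.81 (SE 0.28, adjusted p = 0.00159). iNKT1 cells read 2.19 and 2.00 against 2.91 and 3.03 (0.88, adjusted p = 0.0904), and iNKT17 cells 2.62 and 2.33 against 2.77 and 3.23 (0.52, adjusted p = 0.405).

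Falls were called in iNKT2 cells at the other end of the gene. The intronic region at 142.8 kb (chr1:69544160-69544659) read 3.58 and 3.94 in C57BL/6 and 1.79 and 2.15 in Hivep3-/- iNKT2 cells, a difference of -1.79 (SE 0.34, adjusted p = 0.00512). iNKT17 cells read 3.85 and 4.11 against 3.07 and 3.13, a difference of -0.88 (adjusted p = 0.219), and iNKT1 cells 1.20 and 0.06 against 1.76 and 1.38, where the region was below the minimum. The genotypes did not overlap in any subset, and iNKT1 moved opposite to the others. The change in iNKT1 differed from that in iNKT2 cells by 2.72 (SE 0.48, adjusted p = 0.006). It differed from that in iNKT17 cells by 1.81 (SE 0.48, adjusted p = 0.0797), a call that was lost without any 1 of 9 libraries.

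In C57BL/6 mice the same 142.8 kb region was lower in iNKT1 than in iNKT2 cells by a log2 difference of -3.13 (SE 0.34, adjusted p = 7.19e-06) and than in iNKT17 cells by -3.35 (SE 0.34, adjusted p = 2.25e-06). At 149.4 kb, in the 3′ UTR (chr1:69537552-69538051), iNKT2 cells read 4.01 and 3.72 in C57BL/6 and 2.03 and 2.41 in Hivep3-/- mice, a difference of -1.64 (SE 0.20, adjusted p = 0.000451). It was under 3-fold without C57BL/6 iNKT2 replicate 1 (-1.49) or Hivep3-/- iNKT2 replicate 1 (-1.45). iNKT1 cells read 4.64 and 4.59 against 3.76 in both Hivep3-/- libraries (-0.86, adjusted p = 0.0236), and iNKT17 cells 2.75 and 3.06 against 2.91 and 2.99 (0.05, adjusted p = 0.951). The iNKT2 change differed from the iNKT17 change by -1.69 (SE 0.29, adjusted p = 0.016), which was -1.53 without C57BL/6 iNKT17 replicate 1, -1.54 without C57BL/6 iNKT2 replicate 1 and -1.5 without Hivep3-/- iNKT2 replicate 1. Over the family 2 of 81 regions were called in an interaction (2.47%), against 4.17% of all regions; the calls between iNKT1 and iNKT2, iNKT1 and iNKT17, and iNKT2 and iNKT17 changes were 1, 1 and 1, where 3.06%, 1.42% and 1.02% of all regions were called. The 2 became 1 without C57BL/6 iNKT17 replicate 1 or Hivep3-/- iNKT2 replicate 1, and 4 without Hivep3-/- iNKT2 replicate 2.

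The Ikzf2 genotype calls rest on weak regions. With 5 added on the linear scale before the logarithm, all 6 fell under 3-fold, with 7 calls reading from -1.05 to 1.55 and adjusted p from 4.19e-06 to 0.00135. Summed over the locus, where strong regions weigh most, the Ikzf2 signal was 350 and 337 in C57BL/6 and 400 and 384 in Hivep3-/- iNKT1 cells, 255 and 243 against 324 and 328 in iNKT2 cells, and 280 and 301 against 348 and 323 in iNKT17 cells. Hivep3-/- sums were higher in all 3 subsets with no overlap, by 0.19 (SE 0.06, adjusted p = 0.0633), 0.39 (SE 0.06, adjusted p = 0.000794) and 0.21 (SE 0.06, adjusted p = 0.0635) on the log2 scale. These are 1.14-fold, 1.31-fold and 1.15-fold, and no family sum reached 1.5-fold between genotypes, where 1.88%, 2.39% and 0.869% of all gene sums were called. For the other sums, the Ikzf3 value in iNKT1 cells was lower in Hivep3-/- mice by a log2 difference of -0.18 (adjusted p = 0.046), and the Ikzf1 differences were -0.02, 0.01 and 0.00.

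**Figure D3:**
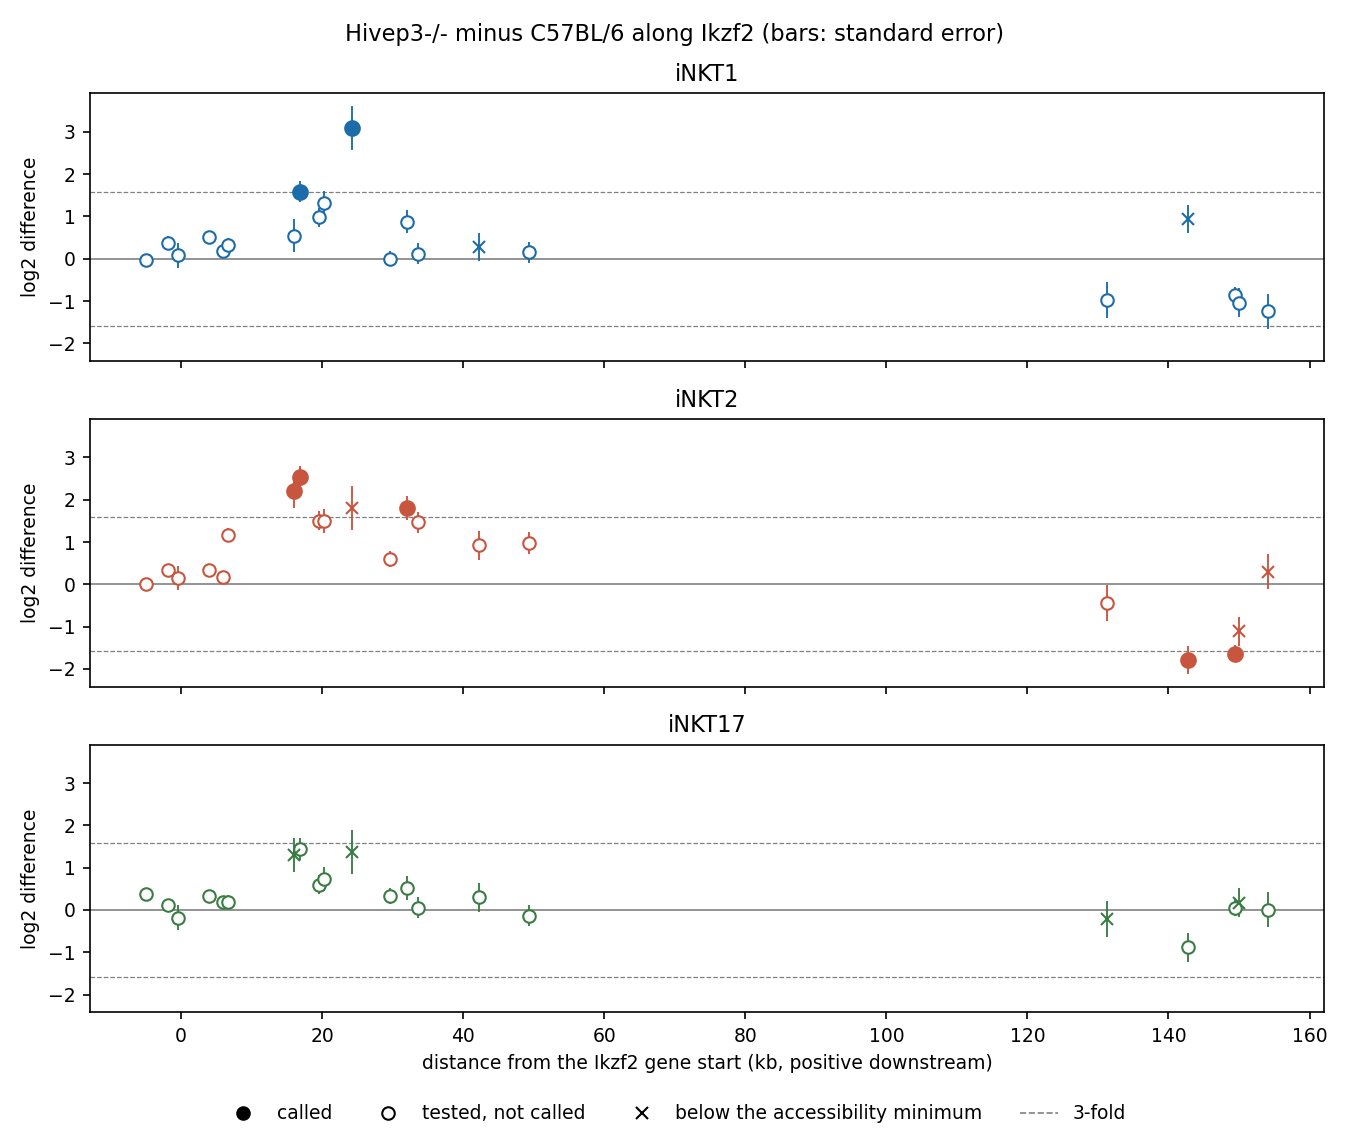
Hivep3-/- minus C57BL/6 difference in log2 signal (y axis, with the standard error of the fit) at the 21 Ikzf2 regions against distance from the gene start in kb (x axis) in iNKT1, iNKT2 and iNKT17 cells; filled points were called, open points tested and not called, crosses below the accessibility minimum, and dashed lines mark 3-fold. Called rises lie between 16.0 and 32.1 kb, reaching 3.10 in iNKT1 and 2.54 in iNKT2 cells, and called falls of -1.79 and -1.64 lie at 142.8 and 149.4 kb in iNKT2 cells.

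**Figure D4:**
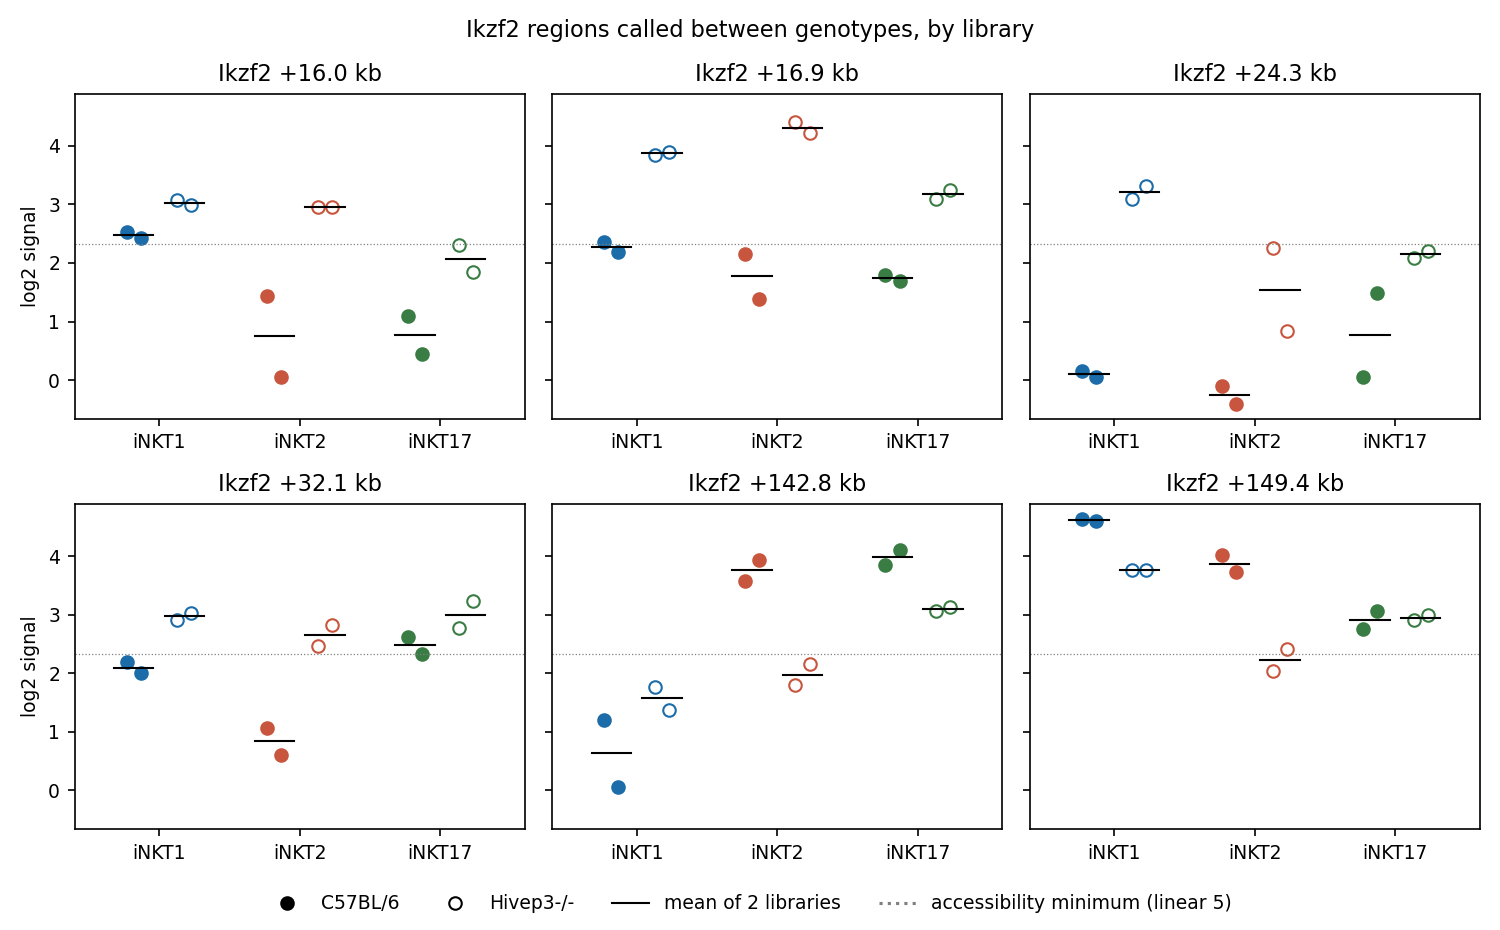
Log2 signal (y axis) in each library at the 6 Ikzf2 regions called between genotypes, by subset (filled points, C57BL/6; open points, Hivep3-/-; black lines, means of 2 libraries; dotted line, the accessibility minimum of 5 on the linear scale). At 16.9 kb every open point lies above every filled point, from 3.10 to 4.40 against 1.39 to 2.35, while at 142.8 kb the iNKT2 points fall from 3.58 and 3.94 to 1.79 and 2.15.

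Among the subsets, Ikzf2 had further regions that each favoured a different cell. The intronic region at 131.3 kb (chr1:69555680-69556179) was lowest in iNKT17 cells, with 0.18 and 0.82 against 3.58 and 3.65 in iNKT1 and 3.03 and 2.59 in iNKT2 cells of C57BL/6 mice. Hivep3-/- cells read -0.41 and 0.97, 2.77 and 2.53, and 2.79 and 1.94. iNKT1 minus iNKT17 was 3.11 in C57BL/6 (SE 0.43, adjusted p = 3.92e-05) and 2.37 in Hivep3-/- cells (SE 0.43, adjusted p = 0.000428). The 3′ UTR region at 154.1 kb (chr1:69532916-69533415) was instead highest in iNKT17 cells, at 3.27 and 3.46 in C57BL/6, against 2.83 and 2.94 in iNKT1 and 1.06 and 0.91 in iNKT2 cells. Hivep3-/- cells read 3.76 and 2.99 in iNKT17, 1.82 and 1.48 in iNKT1, and 2.03 and 0.55 in iNKT2, where iNKT1 and iNKT2 overlapped. iNKT2 minus iNKT17 was -2.38 in C57BL/6 (SE 0.41, adjusted p = 0.000316) and -2.08 in Hivep3-/- cells (SE 0.41, adjusted p = 0.000919), the latter -1.34 without Hivep3-/- iNKT2 replicate 2.

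Ikzf4 and Ikzf5 had no called region in any comparison. The intronic Ikzf4 region at 8.8 kb (chr10:128636952-128637451), named after its values were seen, was the strongest of its locus and highest in iNKT2 cells, at 7.08 and 7.11 in C57BL/6 and 7.20 and 7.29 in Hivep3-/- mice. iNKT1 cells read 5.83 and 6.05, and 6.03 and 6.21, and iNKT17 cells 6.2 and 6.59, and 6.55 and 6.84, without overlap with iNKT2 cells. iNKT1 minus iNKT2 was -1.16 in C57BL/6 and -1.13 in Hivep3-/- cells, under 3-fold.

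Genes whose locus sums ran most like those of the family over the 12 libraries were Clstn1, Mctp2 and Rps15a for Ikzf1 (Pearson r 0.989 each), Itgae (0.969), Ncbp3 (0.964) and Ech1 (0.962) for Ikzf2, Blm (0.995), Tg (0.992) and Kcnc1 (0.988) for Ikzf3, and Dnmt3a (0.970), Kcnn2 (0.967) and Tnf (0.964) for Ikzf4. Between members, r was -0.70 for Ikzf1 and Ikzf3, 0.39 for Ikzf1 and Ikzf2, and 0.10 for Ikzf2 and Ikzf3, and Ikzf4 gave -0.31 with Ikzf1, -0.51 with Ikzf2 and -0.40 with Ikzf3. The libraries share subsets and pools, so these describe 12 libraries and are not independent points.

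Proteins that work with the family were examined at their own genes by the same locus rule. These comprised NuRD subunits, Sin3 and CtBP corepressors and the cereblon ubiquitin ligase, through which thalidomide analogues degrade Ikaros and Aiolos in human cells. Over 22 genes with 136 regions, 5, 10 and 12 regions were called between iNKT1 and iNKT2, iNKT1 and iNKT17, and iNKT2 and iNKT17 cells of C57BL/6 mice (3.85%, 7.69% and 9.09% of those tested, against 16.0%, 20.5% and 16.2% of all regions). In Hivep3-/- mice the counts were 12, 10 and 12 (9.23%, 7.52% and 8.89%, against 17.3%, 19.3% and 15.6%). Between genotypes 0, 1 and 0 were called in iNKT1, iNKT2 and iNKT17 cells (1.15%, 1.68% and 0.271% of all regions). That region was an exon of Chd3, a NuRD helicase (chr11:69344146-69344645), which read 1.44 and 1.39 in C57BL/6 and 3.38 and 3.21 in Hivep3-/- iNKT2 cells (1.88, SE 0.46, adjusted p = 0.0196). It passed the accessibility minimum through the Hivep3-/- iNKT2 libraries, where it was high, so the call is not read as support. In iNKT1 and iNKT17 cells of both genotypes it read 1.23 or less, below the minimum.

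Marker promoters were highest in the labelled subset for 6 of 6 iNKT1 and 6 of 6 iNKT17 markers, and for 3 of 5 iNKT2 markers, the exceptions being Gata3 and Icos. All 4 T cell markers were accessible in all 12 libraries. None of 4 double positive thymocyte markers had a promoter region in the table, and 1 of 4 B cell (Pax5) and 1 of 4 myeloid markers (Cd68) did, accessible in all 12 libraries. The Pax5 region had a C57BL/6 mean of 2.92 in iNKT1 against 4.46 in iNKT2 and 4.43 in iNKT17 cells, and the Cd68 region 5.47 against 6.04 and 5.97. The part of other cell types in the subset differences was not tested. At Hivep3 itself 0 of 21 regions were called between genotypes in any subset, and its promoter read 6.36 to 6.72 over the libraries, so accessibility does not check the deletion. Linear sums per library ran from 1915051 to 1919036 after the authors' scaling, so read depth is not given by the table. The number of distinct values up to the median ran from 73 in Hivep3-/- iNKT17 replicate 2 to 491 in Hivep3-/- iNKT1 replicate 2. Its relation to depth was not tested.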

How the data were processed

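All 12 ATAC-seq libraries of sorted thymic iNKT subsets, wild-type and Hivep3-/-, were used. The authors trimmed reads to 50 bp (Trimmomatic 0.39), mapped them to mm10 with the ENCODE pipeline, merged peaks to regions of 500 bp, counted transposase insertions with chromVAR and normalized them with voom. The deposited log2 values range from -4.31 to 9.95, and read depth cannot be recovered from them. All 12 value columns were matched to a library by title.

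Regions were assigned to genes of GENCODE M21, whose coordinates were used 1-based. Group means of the 12 libraries were fitted in limma 3.58.1 (R 4.3.3) with a variance trend, 6 residual and 7.17 prior degrees of freedom, on all regions whose linear mean reached 5 in one or both compared groups. Adjustment was by Benjamini-Hochberg within each comparison, and calls needed adjusted p below 0.1 and 3-fold. Locus sums add linear signal over the regions of a gene, and were called at 1.5-fold. The fit was also run on simulated independent values, with changes placed only in regions stronger than most of those called at Ikzf2. That run does not bear on the calls made here. Tables and plots used Python 3.11.15, pandas 2.3.3 and matplotlib 3.10.9.

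Titles give the subsets of a genotype the same mouse number, and these were taken as 1 pool; deviations of same-numbered libraries correlated with 0.12 to 0.167 between subsets of C57BL/6 and 0.126 to 0.15 in Hivep3-/- mice. Alternatives were no filter, a filter over all libraries, pseudocounts of 1 and 5, repeated quantile normalization, a replicate block, only the compared groups, a 2-fold threshold and each library left out. Regions named are the strongest promoter region per gene, every genotype or interaction call, and the largest rise and fall per gene and subset pair; like genes are the 3 with the highest r, and partners those with a genotype call. Members and lists were chosen with earlier results of these data known.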

Additional observations from a re-analysis of the deposited data

Results flagged for a closer look

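At 3 points the change between genotypes differed between subsets in a test of the difference itself, all at Ikzf2. The change at 142.8 kb was higher in iNKT1 than in iNKT2 cells by 2.72 on the log2 scale (SE 0.48, adjusted p = 0.006) and higher in iNKT1 than in iNKT17 cells by 1.81 (SE 0.48, adjusted p = 0.0797). The iNKT1 libraries of both genotypes were below the accessibility minimum there. The comparison with iNKT17 cells was not called with quantile normalization repeated (adjusted p = 0.104) or with only the compared groups fitted (adjusted p = 0.117). At 149.4 kb the change in iNKT2 minus that in iNKT17 cells was -1.69 (SE 0.29, adjusted p = 0.016). It fell under 3-fold without C57BL/6 iNKT17 replicate 1 (-1.53), C57BL/6 iNKT2 replicate 1 (-1.54) or Hivep3-/- iNKT2 replicate 1 (-1.5). Over the family 2.47% of regions were called in an interaction, against 4.17% of all regions. With 2 libraries per group, single libraries could not be examined as outliers.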

How the results depend on the processing

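Of 37 region results named in the report, 12 kept their direction and their side of the threshold under every alternative, and none reversed. The others lost the 3-fold threshold or the adjusted p under at least 1 alternative, mostly the pseudocounts, which shrink differences between weak regions by construction. Family regions called between genotypes numbered 2 in iNKT1 cells and became 1 with the mean of 5 over all libraries, 1 with a pseudocount of 1, 0 with 5, 1 with quantile normalization repeated and 4 at 2-fold. In iNKT2 cells the call at 16.0 kb was lost with the mean over all libraries, where that region was not tested. The 5 iNKT2 calls became 2, 0 and 9 with pseudocounts of 1 and 5 and at 2-fold, and in iNKT17 cells 0 became 1 at 2-fold. Between subsets, 31 in C57BL/6 became 15 and 25 in Hivep3-/- became 12 with a pseudocount of 5, and the latter 46 at 2-fold. Interaction calls numbered 2 and became 1 and 0 with the pseudocounts and 5 at 2-fold. Leaving out each library gave 1 to 2 in iNKT1, 4 to 7 in iNKT2, 0 to 0 in iNKT17, 29 to 31 and 24 to 27 between subsets, and 1 to 4 interactions; the iNKT1 count was 1 without replicate 2 of either genotype. Over all regions, genotype calls of 625, 923 and 147 in iNKT1, iNKT2 and iNKT17 cells became 1254, 1551 and 469 without the filter on accessibility. With the mean over all libraries they became 758, 907 and 236. With a pseudocount of 1 they became 388, 594 and 79, and with 5 they became 26, 68 and 8. At 2-fold they became 1928, 2812 and 743, and the 625 became 559 with quantile normalization repeated. Falls with the pseudocounts and rises at 2-fold were therefore not particular to the family. Subset calls over all regions were counted for iNKT1 and iNKT2, iNKT1 and iNKT17, and iNKT2 and iNKT17. In C57BL/6 mice 9355, 12168 and 9543 became 2470, 4987 and 3276 with a pseudocount of 5. In Hivep3-/- mice 10156, 11421 and 9125 became 3196, 4549 and 2924, and 17313, 17730 and 15184 at 2-fold. Interaction calls of 1836, 860 and 617 became 184, 36 and 32 with a pseudocount of 5, and 4001, 1657 and 1317 at 2-fold. A lone library left in a group was assumed to vary like the other groups.

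With the replicate block the counts were 2, 5, 0, 31, 25 and 3, which moved no count but that of the interactions. Across genotypes a number is shared without a stated link, and same-numbered libraries correlated with 0.172, 0.145 and 0.113 in iNKT1, iNKT2 and iNKT17 cells. Of 48 locus sum results 47 were unchanged under these alternatives; Ikzf3 in C57BL/6 iNKT1 minus iNKT17 cells (-0.56) passed 1.5-fold without iNKT1 replicate 1 (-0.63). Coarse low values in libraries with few distinct values limit what can be said of weak regions.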
